A study of Capra hircus with 72 samples.

Results

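The genes described here are the ubiquitin ligase and deubiquitinase genes whose names begin with FBXO, FBXL or FBXW, or with TRIM, RNF or USP and a digit. TRIM63 was left out by the rule. Taken over the 6 deposited tables of transported against control goats, 94 such genes were listed among 7558 distinct genes. They were 15 FBXO, 4 FBXL and 2 FBXW genes, 15 TRIM genes, 32 RNF genes and 26 USP genes. The rule goes by name, and 1 of the 26, USP6NL, encodes a Rab GTPase-activating protein and no ubiquitin peptidase. FBXO32, TRIM55, TRIM72, TRIM32 and USP7, well-known relatives, are not analysed here. Of the 94 genes, 88 were listed in a muscle table, 10 in a blood table and 4 in both tissues.

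Ubiquitin is attached to proteins by a chain of activating, conjugating and ligating enzymes, and the ligase chooses the protein. F-box proteins are the interchangeable substrate receptors of cullin ligases. Most TRIM and RNF proteins carry a RING domain that brings the conjugating enzyme to the substrate. USP proteins are cysteine proteases that take ubiquitin off again. In skeletal muscle of rodents, several ligases of these families are known for their part in the breakdown of contractile proteins during fasting, disuse and glucocorticoid excess. In leukocytes, several TRIM and RNF ligases act in innate immune signalling.

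The animals were 8-month-old intact male Spanish goats (Capra hircus), kept without feed overnight. They were transported in a livestock trailer for 30 min (about 50 km) or for 180 min (about 200 km), or stayed in pens as controls. No genetic change or drug was part of the design, and all animals were slaughtered. Blood was sampled as 7 libraries of 180 min, 4 of 30 min and 7 of control goats. Muscle libraries form a 24H set and a 6D set, names taken from the tables and left undefined by the labels, with 9 libraries per group in each set. The same goat numbers recur in blood and in both muscle sets, and both transport groups of a set were compared with the same control libraries. For muscle goat 9 the labels conflict, since its title and group tag say control and its treatment field says 180 min of transport. It entered the control group, and results that change when it is dropped are given both ways. The design text spreads the treatments over different days that are not tied to libraries, so the day's part was not tested.

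Library totals lay between 9.45 and 39.5 M counts (M = 1000000). A deposited table lists only genes with an unadjusted p under 0.05 in the authors' own test, so being listed, and the direction listed, were selected on the comparison itself. That selection also favours transported goats lying on 1 side of the control median. Counts of such goats below are description only, and their share over all listed genes is not given. Levels below are the deposited normalized counts (raw counts over the size factor of the library) unless FPKM (counts per kilobase of gene length and per M of library total) is named. Of 10 striated muscle markers 3 were listed at 30 min in the 24H muscle set, 1 higher and 2 lower, and they summed to between 818100 and 1601000 normalized counts in 30 min libraries, against 927300 to 1965000 in control libraries. In that set the control library of goat 8 stood apart for 2 of the genes described below (USP13 and RNF115).

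Among the listed genes of control muscle, TRIM54, a RING protein of the sarcomere also known as MuRF3, had by far the highest level per length. It averaged 339.9 ± 142.6 FPKM in the controls of the 6D set and 323.2 ± 131.2 FPKM in those of the 24H set (SD, n = 9 each). In the 24H controls it was followed by RNF181 at 87.5 ± 17.6 FPKM, RNF7 (the RING subunit that pairs with cullin 5) at 75.0 ± 10.03 FPKM, RNF11 at 63.1 ± 15.2 FPKM and USP2 at 35.7 ± 7.61 FPKM (SD, n = 9 each). The step between RNF181 and RNF7 was smaller than the SD of RNF181 and larger than that of RNF7. The 77 genes listed in either table of the 24H set ranged down to 0.0317 FPKM (RNF43). In control blood the highest of 10 was RNF149 at 77.8 ± 20.4 FPKM and the lowest was FBXL7 at 0.00801 FPKM (n = 7).

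With 30 min of transport the 24H muscle set gave the longest list, with 44 ligase and deubiquitinase genes higher and 12 lower than in controls. The authors' deposited table called 22 of these 56 at an adjusted p under 0.05, 19 higher and 3 lower, where 12.1% of all genes that the authors adjusted were called. Over listed genes alone, which is the like base, the called share was 39.3% of the family genes and 37% of all 4125, so the family stood near the background. The edgeR quasi-likelihood test, adjusted over the same number of genes, called 0 of the 56. It called 0.0949% of all genes and 0.291% of the listed ones. An unadjusted edgeR p under 0.05 was found for 49, but listing at that threshold on the same libraries nearly fixed this. Nothing is read from it, or from such counts in the other comparisons with controls below. DESeq2 called 17 of the 56 and limma 0. Leaving out single libraries moved the edgeR count to 7 without 30 min goat 26, 23 without 30 min goat 22, 13 without control goat 4 and 33 without control goat 8. For DESeq2, limma and left-out libraries the share of all listed genes called is not given, here or below. Such counts are therefore not read as a result about the 56 genes. The share listed higher was 78.6% of these genes and 49.0% of all 4125 listed genes, and their median log2 fold change in the authors' deposited table was 0.47, against -0.22 for all listed genes. Because listing used this comparison, nothing more is read from these shares. The listed genes also differed in length, with a median of 2829.5 bases for the family genes listed higher, 2435.5 for those listed lower, 2424 for all listed higher and 1251 for all listed lower. The part of gene length in these directions was not tested.

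**Figure D1:**
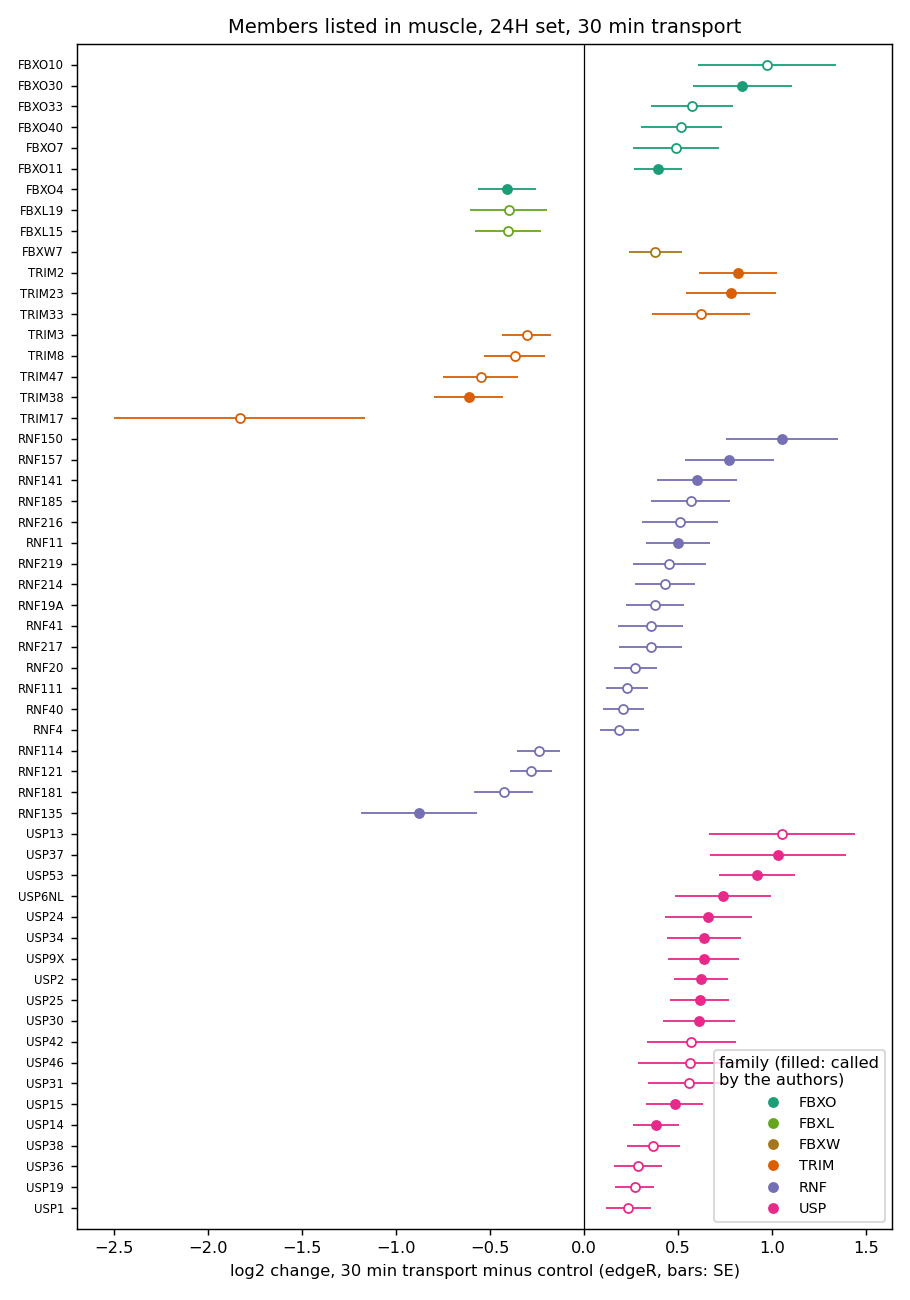
Log2 change (edgeR, 30 min minus control, bars show the SE) of the 56 family genes listed in the 24H muscle set, by family. Filled points were called in the authors' deposited table, and all 19 USP genes lie above 0 while the TRIM genes lie on both sides.

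All 19 USP genes of that table, USP6NL included, were listed higher. Of 9 listed deubiquitinases of other families 6 were higher and 3 lower (UCHL3, MINDY4 and JOSD2). Of the 19, 11 were called in the authors' deposited table, and the median log2 fold change was 0.61. They were USP53, USP2, USP25, USP9X, USP30, USP34, USP14, USP15, USP6NL, USP37 and USP24 among the called and USP19, USP38, USP31, USP13, USP42, USP36, USP46 and USP1 among the others. USP53, a family member found at tight junctions, had 243 to 536 normalized counts (median 410.0) in 30 min libraries and 127 to 312 (median 205) in control libraries. Every 30 min library lay above the control median, but the groups overlapped. Its log2 change was 0.92 ± 0.20 (SE), with an adjusted p of 0.0030 in the authors' deposited table and of 0.060 by edgeR.

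USP25, known for a muscle isoform, ranged from 2092 to 5458 normalized counts (median 2789.8) in 30 min libraries, against 1539.7 to 2704 (median 1804) in control libraries. The top of that range was 1 library, goat 23, and without it the log2 change was 0.47 in place of 0.61. USP14, which trims ubiquitin chains on the proteasome itself, had 662 to 1122 normalized counts (median 860.0) in 30 min libraries and 534 to 854 (median 655) in control libraries, and every transported goat exceeded the control median. USP30, which sits on the mitochondrial outer membrane and opposes the ligase Parkin, averaged 115 ± 24.5 normalized counts after 30 min and 74.7 ± 25.2 in controls (SD, n = 9 each). The large deubiquitinases USP9X, USP34 and USP24 had log2 changes of 0.64 ± 0.19, 0.64 ± 0.20 and 0.66 ± 0.23 (SE). Their edgeR adjusted p-values were 0.066, 0.071 and 0.083.

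USP13 and USP19 belong to the deubiquitinases studied in muscle wasting. USP19, which has an isoform anchored in the endoplasmic reticulum and is studied in rodent atrophy, averaged 2595 ± 373 normalized counts after 30 min and 2152 ± 236 in controls (SD, n = 9 each), with an adjusted p of 0.051 in the authors' deposited table. USP13 averaged 814 ± 479.6 normalized counts after 30 min and 391 ± 349 in controls (SD, n = 9 each). The control library of goat 8 alone held 1277 normalized counts of USP13 while the other controls held 128 to 396. Without that goat the log2 change was 1.53 (edgeR adjusted p = 0.013) in place of 1.05 (0.092). Dropping that library also gave the highest edgeR count of called family genes. How much of the lower adjusted p of USP13 came from its own high control value was not tested. At 30 min in the 6D set USP13 ranged from 18.3 to 667 normalized counts (median 90.6) in transported goats and from 37.3 to 122 (median 75.6) in controls. The log2 change there was 1.19, and 0.57 without goat 23, and it was called by neither the authors nor edgeR.

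USP2 (ENSCHIG00000002460, chromosome 15, 52410459 to 52432875, plus strand, by the coordinates of the tables, whose build is not named) was listed higher in all 4 muscle tables. The enzyme is known for removing ubiquitin from cyclin D1 and from the p53 ligase MDM2, and in mice for a daily rhythm of its transcript. In the 24H set it had 2104 to 3447 normalized counts (median 2581) in controls and 3105 to 6024 (median 3818) after 30 min, and in the table of the longer transport 1904 to 3166 (median 2399) in controls and 2685 to 7119 (median 3722) after 180 min. Each table carries its own size factors, so the same controls have slightly different values in both. The 6D values were 1667 to 3039 (median 2559) in controls and 2603 to 5793 (median 3663) after 30 min, and 1576 to 2906 (median 2452) in controls and 2578 to 5640.4 (median 4087) after 180 min. In each of the 4 comparisons 9 of 9 transported goats lay above the control median, and the groups overlapped at their edges. The comparisons of a set share their controls, and goat numbers recur in both sets, so these are not 4 separate results.

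The log2 change of USP2 at 30 min was 0.62 ± 0.18 (SE) in the 6D set and 0.62 ± 0.14 in the 24H set, and at 180 min 0.82 ± 0.17 in the 6D set and 0.77 ± 0.18 in the 24H set. In the authors' deposited table it was called at 30 min in the 24H set (adjusted p = 0.0042) and at 180 min in the 24H set (0.0063) and in the 6D set (0.0010), and not at 30 min in the 6D set (0.18). By edgeR it was not called in any of the 4, with adjusted p-values of 0.061, 0.072, 0.072 and 0.80 in the same order. DESeq2 gave 0.0060, 0.0057, 0.00096 and 0.30.

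USP36 (chromosome 19, 52731153 to 52761521, plus strand), a nucleolar deubiquitinase that stabilizes MYC, was also listed higher in all 4 muscle tables. At 180 min it had 209 to 434 normalized counts (median 274) in transported goats of the 6D set and 167 to 242 (median 201) in its controls. In the 24H set it had 214 to 459.8 normalized counts (median 287) at 180 min and 174 to 298 (median 199) in controls. All 9 transported goats lay above the control median in each set. The log2 changes were 0.52 ± 0.14 and 0.55 ± 0.17 (SE), with edgeR adjusted p-values of 0.19 and 0.16. At 30 min the log2 changes were 0.35 ± 0.13 in the 6D set and 0.29 ± 0.13 in the 24H set, also short of the threshold by edgeR (adjusted p = 0.80 and 0.14).

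**Figure D2:**
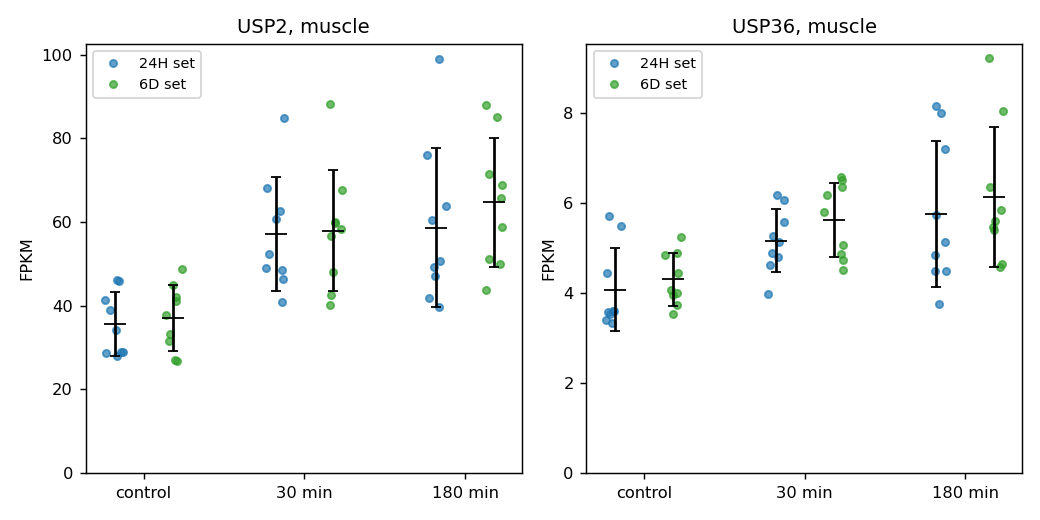
FPKM of USP2 and USP36 in each muscle library of the 24H and 6D sets by transport time, with mean and SD bars. USP2 control means were 35.7 FPKM in the 24H set and 37.0 FPKM in the 6D set, and both transport groups lie higher with overlapping points.

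USP12, a deubiquitinase that works with the cofactor WDR48, was listed higher in 3 tables with log2 fold changes in the authors' deposited tables of 0.24 (6D, 30 min), 0.28 (6D, 180 min) and 0.24 (24H, 180 min). None was called there or by edgeR. USP53 was listed again in the 6D set, at 0.62 ± 0.24 (SE) for 30 min and 0.52 ± 0.24 for 180 min, with edgeR adjusted p-values of 0.80 and 0.49. USP37 had a log2 change of 0.86 ± 0.33 in the 6D set at 30 min and 1.03 ± 0.36 in the 24H set at 30 min. The USP genes that were listed lower were few. USP35 at 30 min and USP3 and USP48 at 180 min were listed lower in the 6D set, and USP21 and USP54 were listed lower in blood at 180 min, none of them called by the authors. USP5, which takes free ubiquitin chains apart, was listed higher at 180 min in the 24H set, with 1359.5 ± 131 normalized counts against 1170.1 ± 146 in controls (SD, n = 9 each).

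Among the F-box genes, FBXO42 rose after 180 min of transport in the 6D muscle set, the 1 family gene of any table that passed the edgeR test. FBXO42 is a substrate receptor reported to direct ubiquitination of p53. It is listed as ENSCHIG00000016833 at chromosome 2, 288784 to 390769, on the minus strand, by the same coordinates. It had 213 to 587 normalized counts (median 388) after 180 min and 168 to 282 (median 189.7) in controls. All 9 transported goats lay above the control median, and only the lowest overlapped the control range. The log2 change was 0.97 ± 0.17 (SE), with an edgeR adjusted p of 0.033 and an adjusted p of 7.7e-05 in the authors' deposited table.

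In the 6D 180 min comparison edgeR called 1 of 20 family genes where 0.0834% of all genes and 0.742% of the 1618 listed genes were called. The authors called 2 of 20 (FBXO42 and USP2), or 10% of the family genes, where 0.827% of all genes and 7.35% of the listed genes were called. DESeq2 called 3, with USP36 as the third. The edgeR call of FBXO42 was lost in 10 of the 18 refits that dropped 1 library (transported goats 12, 17 and 18, and controls 1, 2, 3, 4, 5, 6 and 9), where the adjusted p lay between 0.052 and 0.081 at log2 changes of 0.92 to 0.99. Control goat 9, the animal with conflicting labels, was among these (adjusted p = 0.052).

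In the 24H set FBXO42 had 294 to 991 normalized counts (median 464) after 180 min and 157 to 482 (median 236) in controls. Again 9 of 9 transported goats lay above the control median. The log2 change was 1.07 ± 0.25 (SE), called in the authors' deposited table (adjusted p = 0.0056) and not by edgeR (0.072), where leaving out control goat 8 gave 0.026. It was not listed at 30 min in either set.

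The F-box receptors known from muscle atrophy in mice were listed in part. FBXO30, also called MUSA1, had 116 to 409 normalized counts (median 144) after 30 min in the 24H set and 43.6 to 171 (median 87.4) in controls. The highest was again goat 23, and without it the log2 change was 0.57 in place of 0.84. It was called in the authors' deposited table (adjusted p = 0.029) and not by edgeR (0.072). FBXO40, a muscle receptor that directs turnover of IRS1 in mice, averaged 1318 ± 412 normalized counts after 30 min and 921 ± 338 in controls of the 24H set (SD, n = 9 each), and it was not called (adjusted p = 0.094 in the authors' deposited table, 0.12 by edgeR). FBXO21 was listed in the 6D set with log2 changes of 0.25 ± 0.13 (SE) at 30 min and 0.26 ± 0.11 at 180 min, neither called by edgeR (adjusted p = 0.92 and 0.41).

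FBXW7, the receptor for cyclin E and MYC, was listed higher at 30 min in both muscle sets, with 140.1 ± 46.4 normalized counts against 101 ± 25.9 in controls of the 6D set and 234 ± 41.7 against 180.1 ± 35.5 in controls of the 24H set (SD, n = 9 each). FBXO11, listed higher, and FBXO4, listed lower, were called in the authors' deposited table for the 24H set at 30 min. FBXO4, a receptor for cyclin D1, had 50.3 to 89.6 normalized counts (median 63.2) after 30 min and 71.0 to 106 (median 91.1) in controls, with 9 of 9 transported goats below the control median. The remaining F-box genes of that table were FBXO7, FBXO10 and FBXO33, listed higher, and FBXL15 and FBXL19, listed lower. At 180 min FBXO10, FBXO15, FBXO22 and FBXW8 were listed higher and FBXO25 lower in the 24H set, and FBXO6 and FBXO15 higher and FBXO2 lower in the 6D set. At 30 min FBXO24 was listed lower in the 6D set at a mean of 3.09 normalized counts against 8.03 in controls. None of these was called.

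The TRIM ligases were listed on both sides in muscle. At 30 min in the 24H set 3 TRIM genes were listed higher and 5 lower, and at 180 min 1 higher and 6 lower. TRIM38, a regulator of innate immune signalling, had 44.5 to 96.2 normalized counts (median 58.0) after 30 min and 72.9 to 134 (median 95.5) in controls. After 180 min it had 26.6 to 85.5 (median 54.2), against 66.02 to 122 (median 87.3) in controls. The log2 changes were -0.61 ± 0.18 and -0.64 ± 0.20 (SE). The first was called in the authors' deposited table (adjusted p = 0.018) and the second was not (0.058), while edgeR called neither (0.066 and 0.16).

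TRIM2, a ligase for neurofilament light chain, had 89.4 to 229 normalized counts (median 129.5) after 30 min and 57.9 to 133 (median 79.4) in controls of the 24H set. TRIM23, which carries an ARF GTPase domain beside its RING, averaged 129 ± 41.6 normalized counts after 30 min and 74.6 ± 34.1 in controls (SD, n = 9 each). Each exceeded the control median in every transported goat, and both were called in the authors' deposited table (adjusted p = 0.0093 and 0.025), not by edgeR (0.064 and 0.069). TRIM33, a ligase of the SMAD pathway, was listed higher there. TRIM3, TRIM8, TRIM17 and TRIM47 were listed lower, with TRIM17 at under 4 normalized counts on average in both groups.

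TRIM54 (chromosome 11, 72058696 to 72080414, minus strand) was listed higher at 180 min in both muscle sets. In the 6D set it had 7919 to 25675 normalized counts (median 10452) after transport and 4481 to 13927 (median 6204) in controls, and in the 24H set 5328 to 18890.5 (median 12296) after transport and 5116 to 13694 (median 6346) in controls. The groups overlapped in both sets, and in the 6D set goat 18 held the highest value, without which the log2 change was 0.43 in place of 0.67. The log2 changes of 0.67 ± 0.25 and 0.58 ± 0.24 (SE) were not called by edgeR (adjusted p = 0.38 and 0.31) or by the authors.

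TRIM45 (chromosome 3, 94429125 to 94437838, minus strand), a ligase reported to dampen MAP kinase signalling, was listed in 4 tables, with opposite signs in muscle and blood. Its blood values rest on few counts, with a control mean of 1.81 normalized counts in the 180 min table. In muscle at 180 min it had 215 to 566 normalized counts (median 319) after transport and 355 to 768 (median 491) in controls of the 6D set, and 320.2 to 636 (median 438) after transport and 414 to 931 (median 577) in controls of the 24H set. In each set 8 of 9 transported goats lay below the control median. The log2 changes were -0.66 ± 0.20 and -0.50 ± 0.16 (SE), with edgeR adjusted p-values of 0.26 and 0.19. TRIM7, TRIM25, TRIM37 and TRIM66 in the 24H set and TRIM59 in the 6D set were also listed lower at 180 min, and TRIM8 was listed lower at 30 min in the 6D set, none called.

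**Figure D3:**
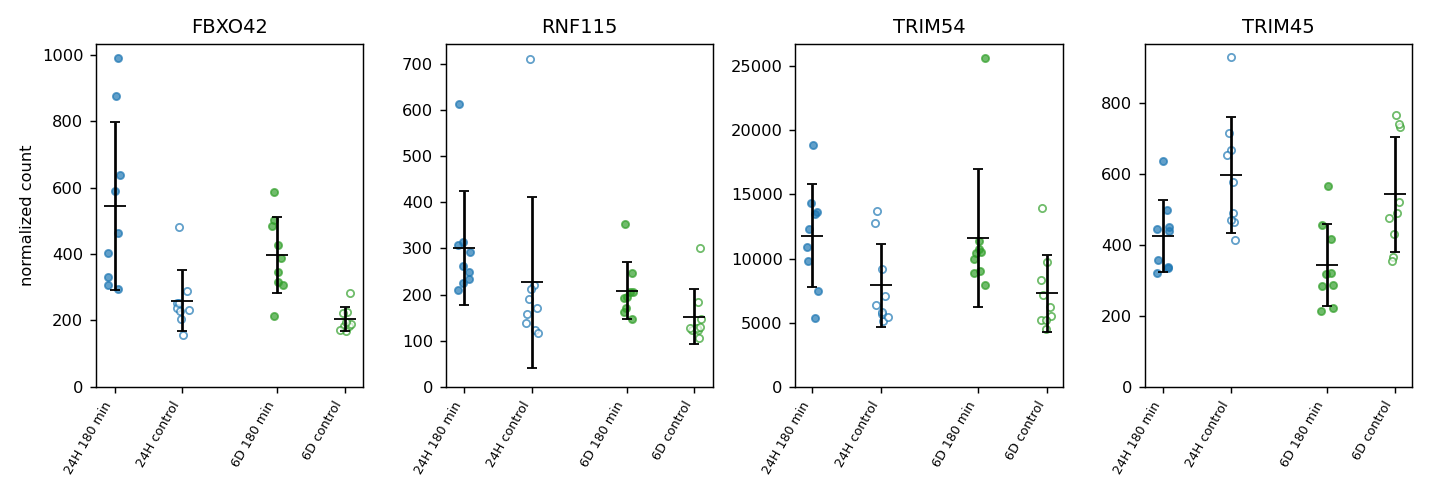
Normalized counts of FBXO42, RNF115, TRIM54 and TRIM45 in each muscle library after 180 min of transport (filled) and in controls (open), for the 24H and 6D sets, with mean and SD bars. FBXO42 and TRIM54 lie higher and TRIM45 lower after transport with overlapping groups, and RNF115 has 1 high library in each group of the 24H set.

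The RNF ligases made up the largest family, and 15 of the 19 listed at 30 min in the 24H set were higher. RNF150, RNF157, RNF11 and RNF141 were called higher and RNF135 lower in the authors' deposited table. RNF150 had 99.6 to 335 normalized counts (median 153) after 30 min and 27.8 to 186 (median 78.1) in controls, and no transported goat lay below the control median. Its log2 change was 1.05 ± 0.30 (SE), with an edgeR adjusted p of 0.064. RNF135, a ligase of the RIG-I antiviral pathway, had 9.60 to 31.0 normalized counts (median 18.2) after 30 min and 14.8 to 74.1 (median 28.4) in controls, with an edgeR adjusted p of 0.084.

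The others listed higher included RNF20 and RNF40, partners in histone ubiquitination, RNF111 and RNF4, which recognize proteins tagged with SUMO, and RNF19A, RNF216 and RNF217 of the RING-between-RING class. RNF41, RNF185, RNF214 and RNF219 completed that group, and RNF114, RNF121 and RNF181 were listed lower. Their log2 fold changes in the authors' deposited table lay between -0.43 and 0.57, and none was called. RNF217 was listed higher in 3 tables, at 0.35 ± 0.17 (SE) for 30 min and 0.41 ± 0.19 for 180 min in the 24H set and 0.47 ± 0.19 for 180 min in the 6D set. No RNF217 change was called by edgeR (adjusted p = 0.16, 0.36 and 0.41).

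At 180 min the 24H set listed 16 family genes higher and 10 lower. The authors called 4 of the 26 (FBXO42, USP2 and RNF115 higher, RNF144A lower), where 2.01% of all genes were called. Over listed genes the called share was 15.4% of the family genes and 14.4% of all 1961. The edgeR test called 0, against 0.171% of all genes and 1.22% of the listed ones, with 25 at an unadjusted p under 0.05. DESeq2 called 4 and limma 0, and the edgeR count became 2 when transported goat 13 was dropped and 1 when transported goat 14 or 15, or control goat 8, was dropped. RNF144A, a RING-between-RING ligase, had 99.2 to 204 normalized counts (median 142) after 180 min and 162 to 257 (median 208) in controls, with all 9 transported goats below the control median. Its log2 change was -0.53 ± 0.14 (SE), with an adjusted p of 0.031 in the authors' deposited table and 0.11 by edgeR. In the 6D set the log2 change was -0.38 ± 0.18, not called by either.

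RNF115 (chromosome 3, 98935144 to 99006397, minus strand), a ligase linked to endosomal receptor traffic, had a value that turned on single libraries. In the 24H set it ranged over 209.7 to 614 normalized counts (median 263) after 180 min and 117 to 710.2 (median 170.3) in controls. The top control value was goat 8 and the top transport value was goat 18. The log2 change was 0.80 in the authors' deposited table (adjusted p = 0.014) and 0.41 ± 0.31 (SE) by edgeR (adjusted p = 1.0), which became 0.86 without control goat 8 (adjusted p = 0.069) and 0.21 without 180 min goat 18. Its 6D level averaged 209 ± 61.9 normalized counts after 180 min and 152 ± 59.6 in controls (SD, n = 9 each), a log2 change of 0.45 ± 0.20 (SE). RNF213, the large ligase known from moyamoya disease in humans, had 33.6 to 74.0 normalized counts (median 57.1) after 180 min and 34.4 to 138 (median 86.6) in controls of the 24H set. All 9 transported goats lay below the control median, and it was not called by edgeR (adjusted p = 0.25).

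At 180 min RNF7, RNF34, RNF126 and RNF145 were also listed higher and RNF43 lower in the 24H set, RNF43 at under 3 normalized counts on average in both groups. RNF25 and RNF34 were listed higher and RNF122 lower in the 6D set. At 30 min the 6D set listed RNF144B higher, with 59.7 ± 32.9 normalized counts against 29.7 ± 11.96 in controls (SD, n = 9 each), and RNF122 lower. In all, the 6D set at 30 min listed 9 family genes higher and 4 lower. The authors called 0 of these 13, against 0.0177% of all genes, and edgeR called 0 against 0% of all genes, with 10 at an unadjusted p under 0.05 and 0 called by DESeq2 or limma.

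**Figure D4:**
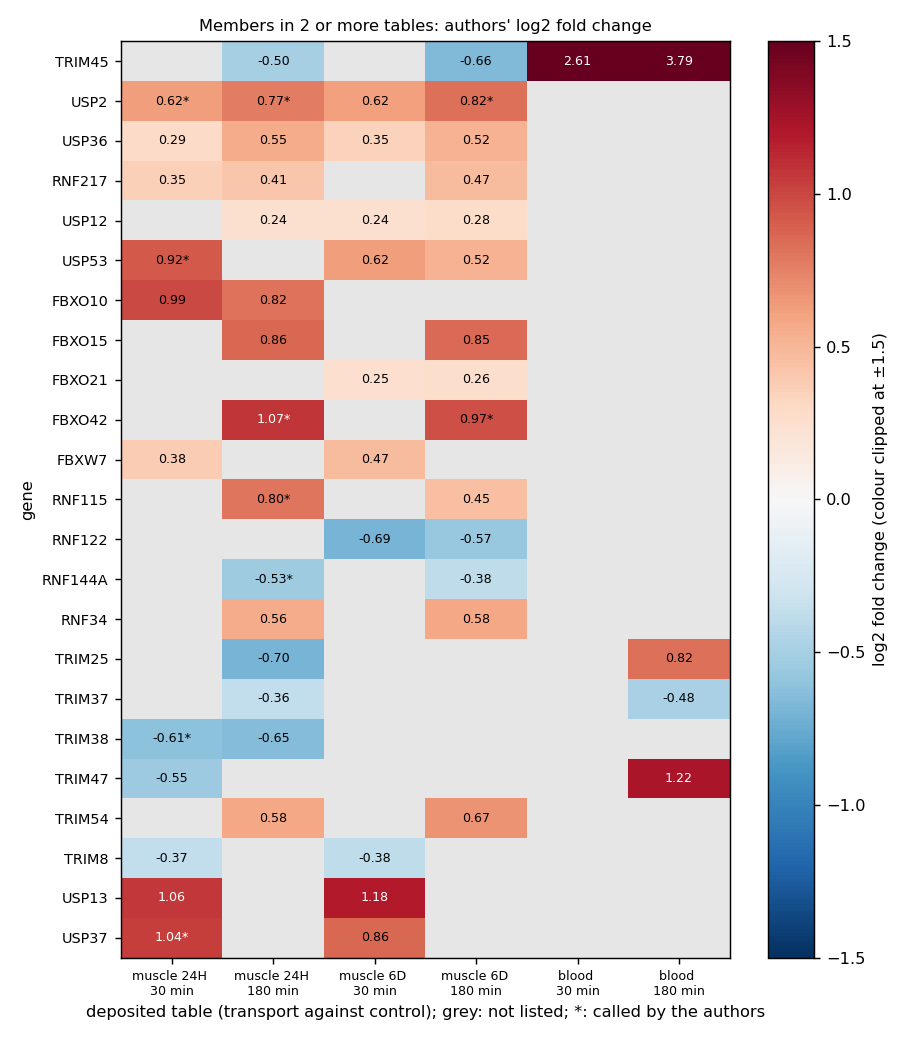
Log2 fold changes in the authors' deposited tables for the family genes listed in 2 or more of the 6 tables (transport against control). Grey cells are not listed, stars mark genes the authors called, and the muscle columns of a set share their controls. TRIM45, TRIM25 and TRIM47 carry opposite signs in blood and muscle, while TRIM37 is lower in both. TRIM45 in blood and TRIM25 in muscle rest on few counts.

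Blood gave few family genes. At 180 min 6 were listed higher (FBXL18, FBXL7, TRIM25, TRIM45, TRIM47 and RNF149) and 3 lower (TRIM37, USP21 and USP54). The authors called 1 of the 9, where 0.704% of all genes and 5.61% of the 1247 listed genes were called. The edgeR test called 0, against 0.0805% of all genes and 0.642% of the listed ones, with 6 at an unadjusted p under 0.05, 1 called by DESeq2 and 0 by limma. FBXL18 (chromosome 25, 39668860 to 39695837, plus strand), an F-box receptor with leucine-rich repeats, had 1004, 1332, 1381, 1389.9, 1695, 2138 and 2923 normalized counts in the 7 transported goats, against 511, 586, 594, 776, 863, 955 and 1013 in the 7 controls. All transported goats lay above the control median, and the lowest of them lay just below the highest control. The log2 change was 1.16 ± 0.27 (SE), with an adjusted p of 0.012 in the authors' deposited table and 0.14 by edgeR.

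TRIM25, the ligase that ubiquitinates the RNA sensor RIG-I, had 511 to 2021 normalized counts (median 955) in blood after 180 min and 351 to 799 (median 651) in controls, with only 4 of 7 transported goats above the control median. In the 24H muscle set at 180 min it was scarce, with 5.35 to 23.7 normalized counts (median 14.5) after transport and 4.92 to 36.2 (median 22.5) in controls. The log2 change was 0.82 ± 0.34 (SE) in blood and -0.70 ± 0.33 in muscle, neither called by edgeR (adjusted p = 0.41 and 0.38). RNF149 averaged 8133 ± 4399 normalized counts after 180 min and 4199 ± 1105 in controls (SD, n = 7 each). TRIM47 averaged 1032 ± 958 normalized counts after 180 min and 443 ± 179.6 in controls (SD, n = 7 each), and without goat 10 its log2 change was 0.62 in place of 1.22.

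At 30 min the blood table listed TRIM45 higher and RNF225 lower. The authors called 0 of these 2, against 0.0241% of all genes, and edgeR called 0 against 0% of all genes, with 0 at an unadjusted p under 0.05 and 0 called by DESeq2 or limma. TRIM45 had 12, 9, 12 and 9 raw counts in the 4 transported goats and 4, 0, 1, 1, 12, 0 and 0 in the 7 controls. After normalization the groups did not overlap, as was the case for 8.14% of all genes that table lists. At 180 min TRIM45 had 81, 0, 25, 14, 11, 0 and 11 raw counts in the transported goats. The 81 counts were those of goat 10, and without it the log2 change was 1.84 in place of 3.69. RNF225 had 1, 2, 0 and 1 raw counts after 30 min, against 0, 44, 0, 0, 10, 31 and 0 in controls, so 3 control libraries carried its signal. FBXL7 in blood at 180 min had 0, 26, 4, 3, 4, 0 and 9 raw counts, against 2 in 1 control and 0 in the other 6. Counts this low cannot fix a fold change, and none of the 3 was called by the authors or by edgeR.

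Markers of other cells were listed in the same tables, and the authors' deposited tables called some of them. The called share of these lists was not set against that of all listed genes. In blood at 180 min all 6 listed neutrophil markers of a list of 10 were higher, with summed levels of 63630 to 218800 normalized counts (median 104800) against 19130 to 80530 (median 44580) in controls, and 4 of 7 macrophage markers were listed, all higher, with sums of 9567 to 21680 (median 14460) against 3297 to 8638 (median 5000). Of 9 T and NK cell markers 1 was listed higher and 5 lower. The endothelial markers VWF and CDH5 were listed higher in blood at 180 min (1.55 and 2.75), neither called. At 30 min in blood 4 of 6 B cell markers were listed, all lower and none called. They summed to 8528 to 12000 (median 9606), against 8868 to 28280 (median 16400) in controls. In the 24H muscle set at 30 min 8 of 10 endothelial markers were listed, all lower, with sums of 2706 to 7224 (median 4143) against 4881 to 11360 (median 6116) in controls. Slow fibre markers were listed there for 6 of 7 genes, all lower, with sums of 98650 to 487600 (median 222300) against 229600 to 898300 (median 471800). At 180 min in the 24H set all 7 slow fibre markers and 6 endothelial markers were listed lower, while in the 6D set no slow fibre marker and 2 endothelial markers, both lower, were listed at either time. Macrophage markers were also listed in muscle. In the 6D set at 30 min 4 of 7 were lower, with sums of 57.1 to 343 (median 189) against 127 to 580.0 (median 341) in controls, and none was called. In the 24H set at 30 min 3 of 7 were listed, in both directions. CD68 was lower and called in the authors' deposited table (-0.87, adjusted p = 0.043), while CD163 and MRC1 were higher and not called (0.76 and 0.60). At 180 min CD163 was listed higher in both sets. It was called by the authors in the 24H set (1.53, adjusted p = 0.0076) and not in the 6D set (0.94). The part of all these cell types in the ligase and deubiquitinase values was not tested. In whole blood and bulk muscle, fewer cells of a type and less RNA per cell cannot be told apart.

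The longer transport was compared with the shorter one directly. Genes entered only if both times had passed p under 0.05 against the same controls, so both transport groups had been used in the selection. That choice leaves out genes listed at 1 time only and tilts the test towards no difference, and a call of 0 does not show that the times act alike. The test covers genes that both tables of a set list, which were 11.1% of the family genes at 180 min and 50% of those at 30 min in blood, 19.2% and 8.93% in the 24H set and 30% and 46.2% in the 6D set. In the 6D set USP2, USP36, USP12, USP53, FBXO21 and RNF122 were tested, in the 24H set USP2, USP36, TRIM38, FBXO10 and RNF217, and in blood TRIM45. The edgeR test called 0 of 6 in the 6D set against 1.7% of all genes tested, 0 of 5 in the 24H set against 5.35% and 0 of 1 in blood against 0%. None had an unadjusted p under 0.05, and DESeq2 and limma called 0 as well.

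On a common scale USP2 in the 24H set averaged 2459 ± 502 normalized counts in controls, 3779 ± 846 after 30 min and 4194 ± 1414 after 180 min (SD, n = 9 each). In the 6D set it averaged 2257 ± 482 in controls, 3460 ± 959 after 30 min and 3990.4 ± 1024 after 180 min. The difference of 180 min minus 30 min was 0.15 ± 0.17 (SE) on the log2 scale in the 24H set and 0.21 ± 0.19 in the 6D set, with edgeR adjusted p-values of 0.996 and 0.995. USP36 differed by 0.26 ± 0.15 in the 24H set (edgeR adjusted p = 0.66) and 0.17 ± 0.15 in the 6D set (0.995).

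The 6D and 24H sets were compared through the difference of their transport effects. At 30 min 7 family genes were listed in both sets, 53.8% of those in the 6D table and 12.5% of those in the 24H table, and at 180 min 11 were, which was 55% and 42.3%. The sets share goat numbers but no library. Genes entered only if listed in both sets, which again tilts this test towards no difference. All 7 and all 11 had the same sign in both sets, as had 645 of 647 and 709 of 709 of all genes listed in both, so a shared sign did not set them apart. The edgeR interaction test called 0 of 7 and 0 of 11, where 0% of all genes tested were called at either time. None of the 18 had an unadjusted p under 0.05, and limma called 0. The difference of the effects (6D minus 24H) was 0.05 ± 0.25 (SE) for USP2 at 180 min, -0.10 ± 0.30 for FBXO42, -0.17 ± 0.26 for TRIM45 and 0.15 ± 0.23 for RNF144A. The largest in size was USP53 at 30 min, at -0.30 ± 0.32, and none exceeded its SE.

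**Figure D5:**
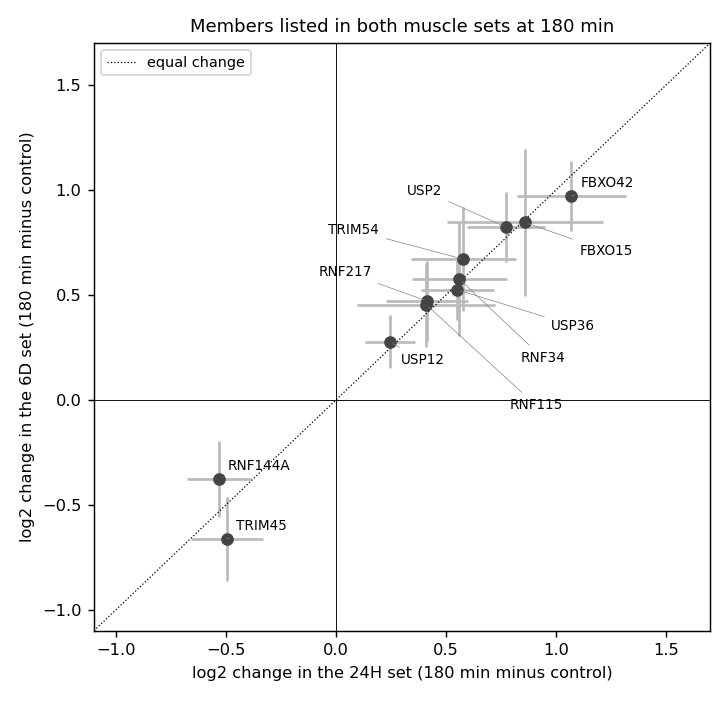
Log2 change (edgeR, 180 min minus control, bars show the SE) of the 11 family genes listed in both muscle sets, in the 6D set against the 24H set. Every gene lies close to the line of equal change, from TRIM45 and RNF144A below 0 to FBXO42 near 1 in both sets.

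Other enzymes of the pathway were read from fixed lists of gene names, again only where listed. At 30 min in the 24H set 13 of 32 HECT and RING-between-RING ligases were listed, all higher, 7 of them called in the authors' deposited table. Over all 4125 listed genes 49.0% were higher and 37% were called, and 12.1% of all adjusted genes were called. These shares are the base for this count and the others at 30 min in this set. UBE3A, the Angelman syndrome ligase, had a log2 fold change of 0.45 (adjusted p = 0.0093) there, and ITCH had 0.73 (0.020). Other RING ligases were listed as 14 higher and 2 lower of a list of 54, with 5 called higher and 1 lower. MDM2, the p53 ligase, had 0.66 (adjusted p = 0.0046) and UBR3 had 0.89 (0.027) in the authors' deposited table. Cullins and their partners were listed as 9 higher and 5 lower of 34, with CUL5 at 0.91 (adjusted p = 0.0079) and NEDD8, the modifier that activates cullins, at -0.33 (0.037) in that table. Of 8 activating enzymes 1 was listed higher and 1 lower. Of 35 other deubiquitinases 6 were listed higher and 3 lower, 2 called (VCPIP1 at 0.65 and OTUD3 at 0.94). edgeR called none of these at the same adjustment, against 0.291% of all listed genes, with MDM2 at an adjusted p of 0.061.

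In the other tables these lists were thinner. At 180 min DTX3L in the 24H set at -0.46 (adjusted p = 0.045) and CUL7 in the 6D set at -0.38 (0.039) were the ones called in the authors' deposited tables, and edgeR called 0. Of all listed genes at 180 min the authors called 14.4% in the 24H set and 7.35% in the 6D set. The edgeR shares were 1.22% and 0.742%. SIAH2, a RING ligase of the hypoxia response, was listed higher in both sets at 180 min, at 0.48 in the 6D set and 0.50 in the 24H set. No gene of these lists was called in blood by the authors or by edgeR.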

How the data were processed

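RNA-seq of goat blood and muscle was deposited as 6 tables, each holding 1 transport group and the controls of its set, for 72 libraries. Per the file headers the authors deposited raw counts per gene, normalized counts (a signal: counts divided by 1 size factor per library, checked on the values) and FPKM. The authors' own log2 fold changes and p-values, raw and adjusted, stand beside them, and gene positions are as deposited. The sources used here do not give the aligner, counting tool, strand setting, build or the authors' test. Reads shared with paralogs or antisense genes cannot be told apart. Per the labels' protocols, RNA came from MagMAX (blood) and RNeasy Fibrous Tissue (muscle) kits and libraries from NEBNext Ultra. Library totals (9.45 to 39.5 M, M = 1000000) were worked back from counts, FPKM and gene length and limit the precision of low counts.

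Each table was tested with the edgeR 4.0.16 quasi-likelihood test on the raw counts with the authors' size factors. P-values were adjusted by Benjamini-Hochberg with the gene number behind the authors' own adjustment, recovered from their adjusted p (9944 to 20719 genes), with a threshold of 0.05. Dispersions come from listed genes only, which were selected on the same contrast. The direct test of 180 min against 30 min and the test of 6D against 24H used genes listed in both tables. DESeq2 1.42.0, limma 3.58.1 on log2(normalized + 1), library totals, TMM, a minimum mean of 50, adjustment within the table and left-out libraries were alternatives. The scripts were tested on simulated data. Software was R 4.3.3 and Python 3.11.15.

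The genes, lists and rule were chosen with earlier results of these data known. Named were genes called by edgeR (up to 10 per direction), else the 5 smallest p in the authors' table, listed atrophy or immune genes and genes in 3 or more tables. Genes called in the authors' table were named in addition, after their values were seen. Within a group each library has its own goat number, read here as a separate animal, which the labels do not state. On that reading p-values measure the spread between goats. The design text gives 54 goats, 18 per treatment, and 9 libraries per group were the most found. Goat numbers recur in both muscle sets. Deviations from the group means of same-numbered libraries correlated above 0.1 in 18 of 18 pairs at 180 min and 15 of 18 at 30 min. No sequences were printed, and promoter motifs were not analysed here. Some genes of the pathway lists are not reported here.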

Additional observations from a re-analysis of the deposited data

Results flagged for a closer look

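Of 93 groups of the named genes, 9 held a library far from the others by Dixon's ratio, where chance gives about 1 in 20 groups. In the 24H muscle set at 30 min goat 23 was the high library for USP25 (5458 normalized counts, the others 2092 to 3276) and for FBXO30 (409.0, the others 115.9 to 196.1), and goat 27 was the low one for RNF217 (290.9, the others 484.3 to 649.7). Control goat 8 of that set was the high library for USP13 (1277, the others 127.6 to 395.9) and, in the 180 min table, for RNF115 (710.2, the others 117.3 to 219.7). RNF115 also had a high 180 min library, goat 18 (613.7, the others 209.7 to 313.0). TRIM25 was low in control goat 2 of the 24H set, with 4.918 normalized counts (the others 17.14 to 36.23). TRIM54 was high in goat 18 at 180 min in the 6D set, with 25670 normalized counts (the others 7919 to 11360). FBXL7 was detected in 1 control blood library, goat 1, at 1.502 normalized counts from 2 raw counts, and the others were at 0.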

How the results depend on the processing

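The edgeR counts of called family genes were 0 at 30 min in blood and in the 6D set under every setting run. With DESeq2 they were 1 in blood at 180 min, 17 in the 24H set at 30 min, 4 at 180 min in the 24H set and 3 in the 6D set at 180 min. With adjustment within the table alone, whose genes were preselected, they were 5, 46, 21 and 10 for the same comparisons. Without goat 9 the 6D set at 180 min had 0. Leaving out single libraries gave 0 to 33 in the 24H set at 30 min, 0 to 2 at 180 min in the 24H set and 0 to 2 in the 6D set at 180 min. Limma, library totals, TMM and a minimum mean of 50 kept the counts. The share of all listed genes called under each of these settings is not given. The counts therefore describe the settings and are not read as a result about the family. TMM shifted the median of blood by 0.18 at 30 min and -0.46 at 180 min, and the family genes stayed at 6 higher and 3 lower there, while the share of all listed genes that were higher was 57.5% in place of 59.3%. The cause of the gap between tools was not tested.

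The pairing check and the replicate block apply to the comparison of both muscle sets: with goat number as a replicate block 0 family genes were called at 30 min and 0 at 180 min, as without it. At 180 min 18 of 18 libraries and at 30 min 13 of 18 correlated best with their own number. The direct tests of 180 min against 30 min gave 0 under each setting run. Of 51 named changes, DESeq2 called 14 more and within-table adjustment 31 more. In 880 refits without 1 library 833 stayed on their side of the threshold, 10 lost and 37 gained a call, and 0 changed sign. Tables list only genes at an unadjusted p under 0.05, so genes outside them are not analysed here, and genes under about 10 counts are limited by counting error.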
